A study of Homo sapiens with 8 samples.

Results

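The actin, myosin and tropomyosin genes are the filament and motor genes of the contractile cytoskeleton, together with calponins, transgelins, filamins, the LIM-only FHL genes, LIMA1 and TUFT1. They were chosen by gene name, with earlier results of these data known. Of the 29004 loci in the deposited gene table, 80 carried 1 of these names. The 80 loci hold 81 gene names, because MYO5A and MYO5C share 1 locus, and another locus is listed as MYO18A together with TIAF1. RNA was sequenced from AB8/13 cells, an immortalized human podocyte line in which a stably integrated lentiviral construct expresses wild-type LATS2 on addition of doxycycline. In the LATS2 OE group 4 samples received 125 ng/mL doxycycline for 8 h, and 4 untreated samples of the same line received no doxycycline. Drug and construct therefore changed together and cannot be told apart. All cells were grown at 33°C on plastic. Whether the 4 samples per group were separate cultures is unstated in the sources.

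Podocytes wrap the capillaries of the kidney filter with foot processes that are built on actin filaments. Non-muscle myosin II, made of heavy chains, regulatory light chains and essential light chains, pulls on these filaments after a kinase such as MLCK phosphorylates the regulatory chain. Tropomyosins lie along the filament, and calponins, transgelins and filamins bind or crosslink it. LATS2 is a kinase of the Hippo pathway that phosphorylates YAP and keeps it out of the nucleus, where YAP would act with TEAD factors. Filament tension in turn favours nuclear YAP, and unassembled actin holds back MRTF, the partner of the transcription factor SRF, which binds CArG boxes.

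The deposited table gives 1 pooled FPKM value per group, that is, fragments scaled to exon length and sequencing depth. No value of a single sample, no SD and no new test across samples could therefore be given, and the depth per sample is unknown. The authors' own test columns were not used as results. No difference below has a replicate check here. A locus is called higher or lower when the log2 ratio of the pooled values was at least 0.32 in either direction (the limit below) and their mean was at least 1 FPKM. In most cells of at least 1 FPKM the decimal point had been displaced, which leaves the ratio of the groups known and the level often open by a factor of 10 or 100. Where a level is open, the lowest possible pair of values is given, and both values of the pair scale together. LATS2 itself was 20.1-fold higher in LATS2 OE cells, without separation of construct and endogenous transcripts. Of 9 podocyte markers 3 (PODXL, SYNPO and CD2AP) averaged at least 1 FPKM, while NPHS1 had 0.00616 FPKM in LATS2 OE cells and 0.00875 FPKM in untreated cells. NPHS1, which encodes the slit diaphragm protein nephrin and is a defining podocyte gene, was thus near 0 in these cultured cells.

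Most of the actin, myosin, tropomyosin and related genes differed little between LATS2 OE and untreated cells. The 4 that passed the limit were all lower in LATS2 OE cells. These were TUFT1, ACTC1, FHL2 and CNN3. ACTC1 is an actin and CNN3 a calponin, while TUFT1 and FHL2 are neither filament nor motor genes. No myosin, tropomyosin or filamin passed the limit. In bulk RNA, fewer cells with a transcript and less of it per cell cannot be told apart. Of the 80 loci, 41 averaged at least 1 FPKM, of which 0 were higher, 4 were lower (9.76%) and 37 stayed within the limit. Among all 12401 loci of that level, 4.79% were higher and 5.38% were lower. The median log2 ratio was -0.04 for the 41 members and -0.0041 for all loci, whose interquartile range was -0.08 to 0.07. A log2 ratio below 0 was found for 25 of the 41 members (61.0%), against 51.5% of all loci. An absolute log2 ratio of at most 0.1 was found for 27 members (65.9%), against 60.3% of all loci. The plot of log2 ratios by role shows how the genes were placed.

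**Figure D1:**
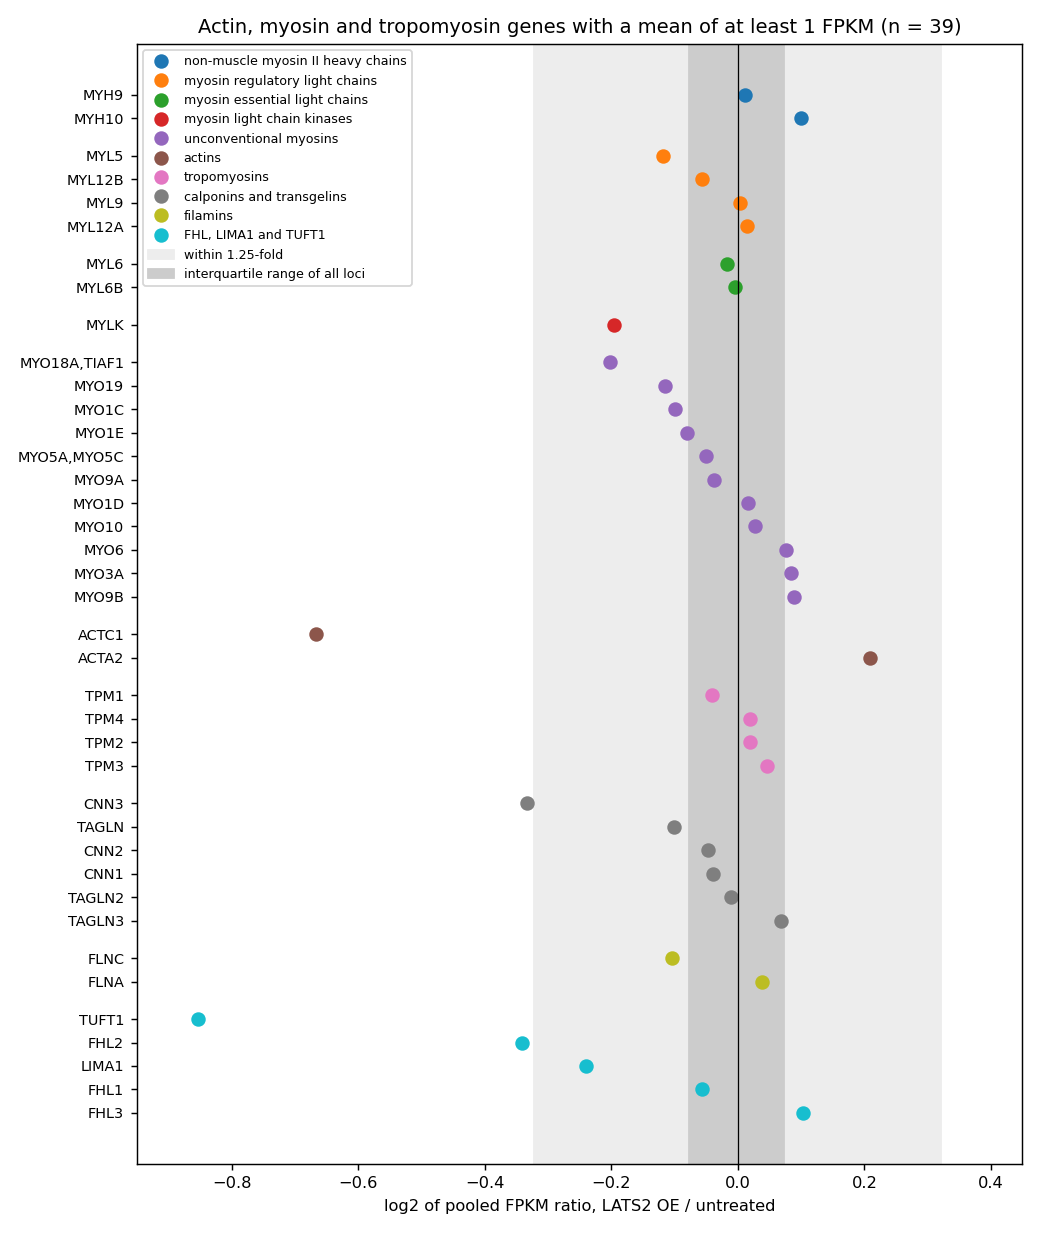
The x axis gives the log2 ratio of pooled FPKM, LATS2 OE over untreated, for 39 of the 41 loci with a mean of at least 1 FPKM, 1 point per locus, coloured by role; the other 2 lay within the limit and are not drawn. The light band marks the limit and the dark band the interquartile range of all 12401 loci. TUFT1, ACTC1, FHL2 and CNN3 lie left of the light band, and no point lies right of it.

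Promoter sequences are shown for the 4 lower genes, because 2 short motifs bear on the YAP and SRF pathways. The bases before the transcription start come from RefSeq (GRCh38.p14), 5′ to 3′ on the strand of the gene. Capitals mark GGAATG on either strand (CATTCC on the reverse), the core of the TEAD motif, or a CArG box, and the motifs do not overlap here. TUFT1 has 1 annotated start, whose stretch holds neither motif. For the other genes 1 of several annotated starts is shown, chosen because it holds a motif.
TUFT1, chr1:151540059-151540308, plus strand, no motif: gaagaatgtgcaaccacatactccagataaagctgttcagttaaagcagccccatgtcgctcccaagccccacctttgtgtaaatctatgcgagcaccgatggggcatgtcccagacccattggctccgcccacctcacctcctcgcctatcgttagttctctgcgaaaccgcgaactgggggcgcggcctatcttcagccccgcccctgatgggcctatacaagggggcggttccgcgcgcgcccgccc
ACTC1, chr15:34795550-34795799, minus strand, CArG box: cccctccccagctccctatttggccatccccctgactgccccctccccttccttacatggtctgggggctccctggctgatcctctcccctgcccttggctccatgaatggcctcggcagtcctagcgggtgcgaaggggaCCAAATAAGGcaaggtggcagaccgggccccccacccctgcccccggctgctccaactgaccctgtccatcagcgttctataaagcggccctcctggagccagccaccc
FHL2, chr2:105399052-105399301, minus strand, CArG box: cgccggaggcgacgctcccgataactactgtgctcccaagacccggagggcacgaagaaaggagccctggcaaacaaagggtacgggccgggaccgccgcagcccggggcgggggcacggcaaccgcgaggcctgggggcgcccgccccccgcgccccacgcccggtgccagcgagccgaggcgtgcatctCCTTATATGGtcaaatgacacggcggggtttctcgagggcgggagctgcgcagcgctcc
CNN3, chr1:94925770-94926019, minus strand, TEAD core: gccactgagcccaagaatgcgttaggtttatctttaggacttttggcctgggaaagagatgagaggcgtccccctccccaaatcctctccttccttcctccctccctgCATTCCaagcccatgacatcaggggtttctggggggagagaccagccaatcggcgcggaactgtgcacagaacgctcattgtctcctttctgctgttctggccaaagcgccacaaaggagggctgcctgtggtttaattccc

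Counted from the start, the CArG box began at base -109 in ACTC1 and at -59 in FHL2, and the TEAD core at -142 in CNN3. ACTC1 and FHL2 each had another start whose window held the TEAD core, at -174 and at -27. Windows of 300 bases (250 before to 50 after a start) were found for 38 of the 42 genes in the 41 loci, 73 windows in all. The TEAD core stood in 11 of these windows (15.1%), against 14.03% of all 35116 promoter windows. Of the 11 genes holding it 3 were lower, namely ACTC1, FHL2 and CNN3. The others, MYH9, MYH10, MYL12A, MYLK, ACTA2, FLNC, FHL1 and LIMA1, lay within the limit. Of all 12401 loci 5.38% were lower, and the share among all genes holding either motif was not computed. A gene with several annotated starts, as ACTC1, FHL2 and CNN3 have, has more windows that can hold a motif. A CArG box stood in 10 of the 73 windows (13.7%), from 8 genes, against 1.29% of all windows. FHL2 gave 3 of the 10, and its windows overlap in part. The other CArG genes were MYLK, MYO1E, TPM4, CNN2, FLNA and FHL1, none of which passed the limit. MYL9 and TAGLN were among the genes without a window, so their promoters were not searched. A match of letters is a description only, and no binding was measured.

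TUFT1 (tuftelin, first described in tooth enamel) had the lowest log2 ratio of the 41 genes, -0.85, a 1.81-fold lower value. The digits give 2.29 FPKM in LATS2 OE cells and 4.14 FPKM in untreated cells, or 10 or 100 times these. Of all loci, 1.02% had a lower ratio. TUFT1 lies at chr1:151512781-151556059 of hg19 on the plus strand and is protein-coding.

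ACTC1, which encodes cardiac alpha-actin, had 0.943 FPKM in LATS2 OE cells and 1.498 FPKM in untreated cells, the only reading of the untreated digits that fits the ratio. Its log2 ratio was -0.67, a 1.59-fold lower value at a level close to the 1 FPKM minimum, and 1.605% of all loci were lower. ACTC1 lies at chr15:35082308-35087790 on the minus strand. The locus in the table is 10.5 times as long as this gene.

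FHL2, a LIM-only protein of focal adhesions that also acts as a transcriptional cofactor, had 183.81 FPKM in LATS2 OE cells and 232.89 FPKM in untreated cells. It was thus abundant in both groups, and its log2 ratio was -0.34, a 1.27-fold lower value. CNN3, the acidic calponin of non-muscle cells, had 1.99 FPKM in LATS2 OE cells and 2.51 FPKM in untreated cells, or 10 or 100 times these. Its log2 ratio of -0.33 corresponds to a 1.26-fold lower value. Both genes lay just past the limit, and with a pseudocount of 1 FPKM at the lowest possible level CNN3 had a log2 ratio of -0.23 and no longer passed it. Of all loci, 4.98% and 5.17% had a lower ratio than FHL2 and CNN3. FHL2 lies at chr2:105974169-106054970 and CNN3 at chr1:95362505-95392779, both on the minus strand.

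The gene that came closest to the limit without reaching it was LIMA1, which encodes the filament-stabilizing protein EPLIN, with a log2 ratio of -0.24. The digits give 4.35 FPKM in LATS2 OE cells and 5.14 FPKM in untreated cells, or 10 or 100 times these. On the other side the highest ratio belonged to ACTA2, the smooth muscle alpha-actin, at 0.21, and 9.16% of all loci were higher. The 41 genes thus spanned log2 ratios of -0.85 to 0.21. All 12401 loci spanned -3.51, a microRNA locus (MIR4421 with MIR6500), to 4.33, which is the induced LATS2 itself. A range over so many loci is wider by their number alone. The central 95% was -0.67 to 0.10 for the members and -0.54 to 0.45 for all loci. With 41 members these ends are the values of single genes, ACTC1 and FHL3, and ACTC1 is close to the 1 FPKM minimum.

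**Figure D2:**
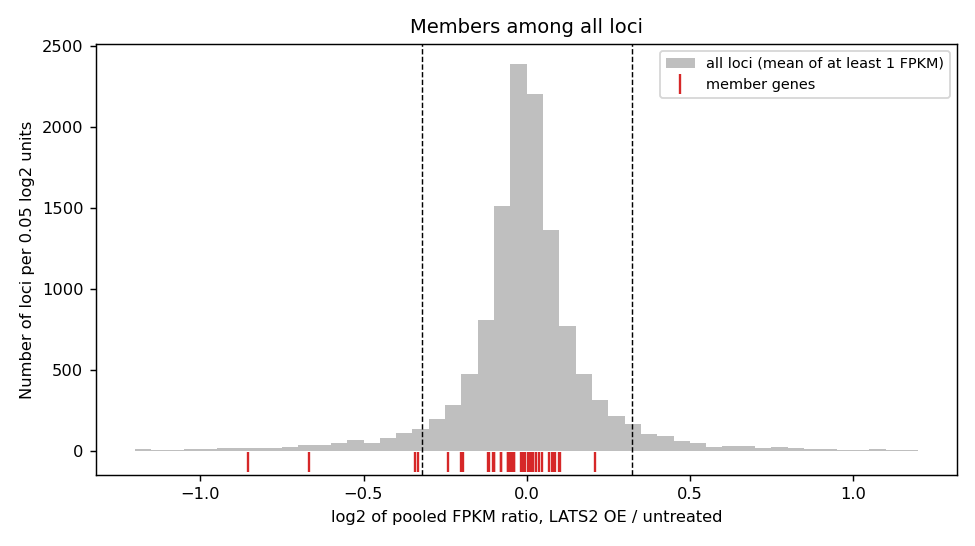
Grey bars count all loci with a mean of at least 1 FPKM by log2 ratio of pooled FPKM, LATS2 OE over untreated, in bins of 0.05. Red ticks are the 41 members, dashed lines mark the limit, and 88 loci beyond -1.2 and 1.2 are not drawn. Most ticks lie under the central peak, and 4 lie left of the dashed line on the lower side.

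The motor itself hardly differed. Non-muscle myosin IIA and IIB heavy chains are encoded by MYH9, a gene mutated in inherited kidney disease, and MYH10. MYH9 had a log2 ratio of 0.01 and MYH10 of 0.10. The digits for MYH9 give 1.52 FPKM in LATS2 OE cells and 1.504 FPKM in untreated cells, and those for MYH10 give 2.33 FPKM in LATS2 OE cells and 2.17 FPKM in untreated cells, in each case or 10 or 100 times these. The third non-muscle heavy chain, MYH14, was listed at 0 in both groups. All 12 muscle heavy chain loci averaged below 1 FPKM. The highest of them were MYH3 (embryonic), with 0.152 FPKM in LATS2 OE cells and 0.169 FPKM in untreated cells, and MYH11 (smooth muscle), with 0.136 FPKM in LATS2 OE cells and 0.123 FPKM in untreated cells.

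The light chains held the most abundant member with a listed value. MYL6, the essential light chain of non-muscle and smooth muscle myosin, had 1268.52 FPKM in LATS2 OE cells and 1283.75 FPKM in untreated cells (log2 ratio -0.02). MYL9, a regulatory light chain, had 192.86 FPKM in LATS2 OE cells and 192.36 FPKM in untreated cells (log2 ratio 0.0038). Both pairs have settled decimal points and differ little. No other member listed above 0 reaches the level of MYL6 even at its highest possible reading, which was 828.55 FPKM in LATS2 OE cells for TPM4. The MYL9 locus in the table is 30.9 times as long as the gene and takes in DLGAP4, whose log2 ratio was 0.22, and the part of DLGAP4 reads in the MYL9 value was not tested. Of the other regulatory chains MYL12A was highest (log2 ratio 0.01), MYL12B had -0.06 and MYL5 was lowest (-0.12). The MYL5 locus overlaps that of MFSD7, whose log2 ratio was 0.04, and the part of MFSD7 reads in the MYL5 value was not tested. MYL12A and MYL12B are neighbouring paralogs listed with the same locus span, and none of the 80-base windows of the MYL12B transcript is shared with another gene. The essential chain MYL6B had a log2 ratio of -0.0038, close to MYL6. MYL2, the ventricular chain, was listed at 0 in both groups, and MYL1, MYL3, MYL4, MYL7 and MYL10 were below 1 FPKM.

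MYLK, which encodes the kinase of the regulatory chains in smooth muscle and non-muscle cells, was the only kinase of this kind with a mean of at least 1 FPKM. Its log2 ratio was -0.20, from digits of 3.62 FPKM in LATS2 OE cells and 4.15 FPKM in untreated cells, or 10 times these. It lay within the limit, at a position where 9.89% of all loci were lower. The skeletal muscle kinase MYLK2 was below the minimum, with 0.737 FPKM in LATS2 OE cells and 0.404 FPKM in untreated cells (log2 ratio 0.87). MYLK3 had 0.0486 FPKM in LATS2 OE cells and 0.0392 FPKM in untreated cells. MYLK4 had 0.111 FPKM in both groups.

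Of 24 loci of unconventional myosins, which carry membranes and organelles along actin, 12 averaged at least 1 FPKM. None passed the limit, 5 had log2 ratios above 0 and 7 below, and the median was -0.04. The lowest was the locus of MYO18A and TIAF1 (-0.20), which does not separate the 2 genes. The highest was MYO9B (0.09), which carries a GTPase-activating domain. MYO1C, a membrane tether, had a settled level of 102.29 FPKM in LATS2 OE cells and 109.56 FPKM in untreated cells (log2 ratio -0.10). MYO1E, a podocyte gene whose loss causes nephrotic syndrome, had a log2 ratio of -0.08. MYO19, a mitochondrial motor, had -0.11, in a locus that takes in ZNHIT3 and PIGW. Other members of the group were MYO5A with MYO5C (-0.05), MYO9A (-0.04), MYO1D (0.02), the filopodial motor MYO10 (0.03), the minus-end-directed motor MYO6 (0.08) and MYO3A (0.08).

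The actins could be read in part only. ACTB and ACTG1, the cytoplasmic actins, are listed at 0 as having too many reads, a mark that 6 loci of the table carry, and give no comparison. ACTA1 and ACTG2 were below 1 FPKM. ACTG2 had 0.165 FPKM in LATS2 OE cells and 0.138 FPKM in untreated cells, and ACTA1 had 0.0325 FPKM in LATS2 OE cells and 0.0228 FPKM in untreated cells. The difference between the log2 ratios of ACTC1 and ACTA2 was -0.88. ACTA2 overlaps FAS on the opposite strand, the library kit as named did not mark strand, and the log2 ratio of FAS was 0.32. The part of FAS reads in the ACTA2 value was not tested. Of 7 markers of mesangial and smooth muscle cells, which also use ACTA2, 4 averaged at least 1 FPKM, and CSPG4 alone passed the limit, with a log2 ratio of 1.06. MYOCD and ITGA8 of that list were at or near 0 in both groups, and the part of such cells in the ACTA2 value was not tested.

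All 4 tropomyosins averaged at least 1 FPKM and lay close to 0, from TPM1 (log2 ratio -0.04) over TPM4 and TPM2 (both 0.02) to TPM3 (0.05). Each of these is within the interquartile range of all loci. Among the 6 calponins and transgelins CNN3 was lowest, TAGLN3 highest (0.07), and the median was -0.04. CNN1 had a log2 ratio of -0.04, CNN2 of -0.05, TAGLN2 of -0.01 and TAGLN (SM22) of -0.10. CNN3 therefore stood -0.29 from CNN1 and -0.29 from CNN2 on the log2 scale. The TAGLN locus takes in PCSK7, whose own log2 ratio was -0.11, and overlaps the loci of SIDT2 (0.11) and LOC100652768 (0.03). The part of their reads in the TAGLN value was not tested. Of the 80-base windows of the TAGLN transcript, 65.3% are shared with another annotated gene model.

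Among the filamins, which crosslink filaments into networks, FLNA had the highest log2 ratio (0.04) and FLNC the lowest (-0.10). Among the FHL genes FHL3 had the highest ratio (0.10) and FHL1 -0.06, so FHL2 stood -0.44 from FHL3 and -0.29 from FHL1. FHL5 was listed at 0 in both groups. The median of FHL1, FHL2, FHL3, LIMA1 and TUFT1 was -0.24, in a group with 2 of its 5 genes past the limit.

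Below 1 FPKM stood 37 members, of which 27 were above 0 in both groups. In 20 of these 27 at least 1 group was under 0.1 FPKM, and read counts behind these values are not known. Log2 ratios above 0 were found for 19 and below 0 for 8 of the 27, from -2.04 (MYH6) to 1.84 (MYL10). MYO5B, the most abundant of these after MYLK2, had 0.444 FPKM in LATS2 OE cells and 0.490 FPKM in untreated cells. MYO7B had 0.0910 FPKM in LATS2 OE cells and 0.0482 FPKM in untreated cells. Listed at 0 in both groups were 7 members, namely MYH1, MYH4, MYH8, MYH13, MYH14, MYL2 and FHL5. MYH2 and MYL3 were listed at 0 in LATS2 OE cells only, and MYH7 in untreated cells only. All 16 markers of skeletal and cardiac muscle, among them MYOD1, MYOG and TNNT2, were below 1 FPKM in both groups as well, and MYOCD, the smooth muscle cofactor of SRF, had 0.000654 FPKM in LATS2 OE cells and 0.00154 FPKM in untreated cells.

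**Figure D3:**
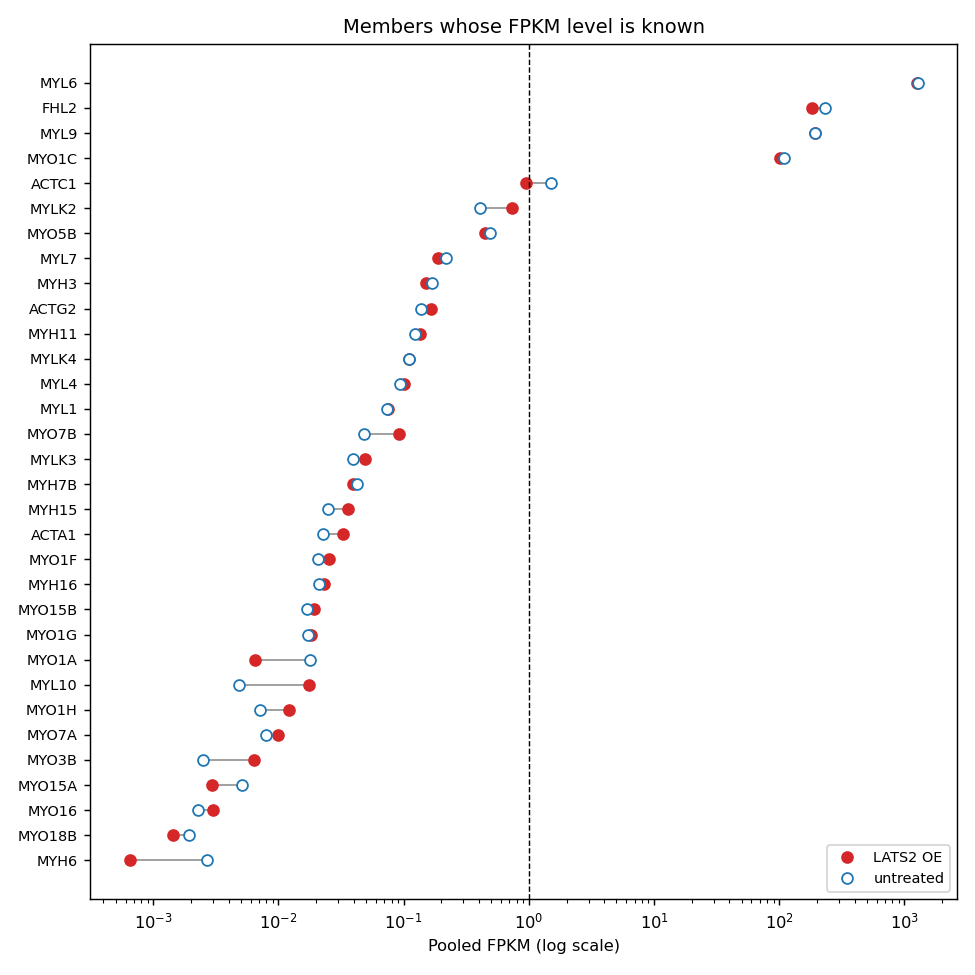
Pooled FPKM on a log axis for the 5 members averaging at least 1 FPKM with a settled decimal point and the 27 members below 1 FPKM in both groups, with filled points for LATS2 OE and open points for untreated cells. The dashed line marks 1 FPKM. MYL6, FHL2, MYL9 and MYO1C lie above 100 FPKM, and the widest gaps, those of MYH6, MYL10, MYO1A and MYO3B, are found under 0.1 FPKM.

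Genes that act on these filaments were read from 3 lists of textbook partners. Among 20 small GTPases, kinases and other regulators of myosin with a mean of at least 1 FPKM, 0 were higher and 1 was lower. Among all loci, 4.79% were higher and 5.38% were lower. The median log2 ratio of the 20 genes was 0.0043. The lower gene was RND3, a small GTPase that opposes RhoA and ROCK1 signaling, at -1.19. The digits for RND3 give 2.33 FPKM in LATS2 OE cells and 5.31 FPKM in untreated cells, or 10 or 100 times these, a 0.439-fold level. RHOA (0.03), ROCK1 (-0.04) and ROCK2 (-0.07) stayed within the limit.

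Among 39 genes of actin assembly and turnover 1 was higher and 1 lower, against 4.79% and 5.38% of all loci, with a median of 0.01. FHOD1, a formin, had a log2 ratio of 0.32, and SSH1, a phosphatase that activates cofilin, of -0.35. Among 25 crosslinkers and stress fiber partners 1 was higher and 1 lower, against the same shares of all loci, with a median of -0.04. These were PDLIM4 (0.40) and PDLIM2 (-0.36), both PDZ and LIM domain proteins of the actin cytoskeleton. The alpha-actinins ACTN1 and ACTN4 (a podocyte disease gene) each had a log2 ratio of -0.08. RHOA, ROCK1, ROCK2, ACTN1 and ACTN4 are named in addition, after their values were seen.

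**Figure D4:**
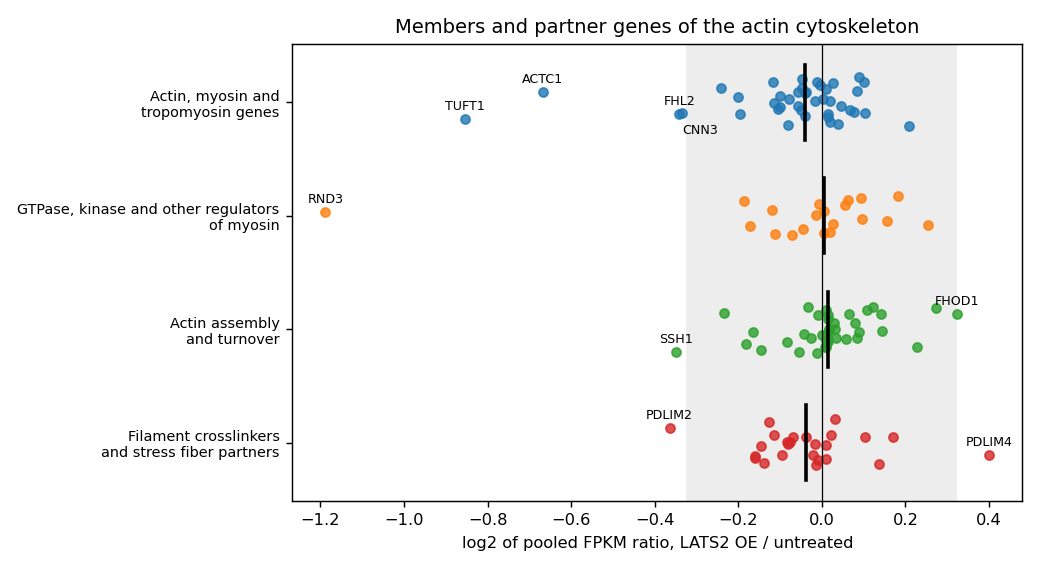
Log2 ratio of pooled FPKM, LATS2 OE over untreated, for the 41 members and for the partner genes of 3 lists, each with a mean of at least 1 FPKM. Black bars are medians, the grey band marks the limit, points are spread vertically for sight only, and genes outside the band are named. RND3, at -1.19, lies farther from 0 than any of the 41 members.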

How the data were processed

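Poly(A) RNA of 4 LATS2 OE and 4 untreated samples was sequenced as single reads. The submitters' processing notes and the methods name bcl2fastq, FastQC, Trimmomatic (0.33), TopHat with hg19 and Cufflinks, while the remaining versions are unstated there. The authors deposited 1 gene-level table with FPKM values pooled per group. Its log2 ratio, test statistic, p-value and q-value columns hold the authors' own comparison. They were not used as results, and the log2 column was read only as a key to the decimal point.

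FPKM cells of at least 1 with 3 or more decimals had the point set 3 digits from the end. Pairs with only 1 possible reading, among them those below 1 FPKM in both groups, were taken as they stood, without the key. Every other pair was read at each possible place, and readings whose log2 ratio lay within 0.002 of the key were kept. Together these steps gave 1 ratio for 20630 of 20636 loci above 0 in both groups. How many of these needed the key was not counted. The step was tested on simulated data, made with the same assumed displacement and with a key from the true values. That test therefore cannot show whether the deposited cells were altered in this way. Ratios were computed in Python (3.11.15) with pandas (2.3.3), and calls were made at 1.25-fold (a log2 ratio of 0.32) for a mean of at least 1 FPKM. No test was run, since there is 1 value per group. Gene positions are those of GENCODE on hg19, and promoters are from RefSeq.

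The members and lists were chosen with earlier results of these data known. Named were all members past the limit, all with a settled level, the highest and lowest of each role group, and all partner genes past the limit. Further members are named to account for all loci, chosen after their values were seen, and a few genes are not reported here. Alternatives were other fold limits, filters, a pseudocount, the decimal point placed without the key, centring on the median, and leaving out loci with several names.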

Additional observations from a re-analysis of the deposited data

How the results depend on the processing

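Of the counts and medians recomputed under the alternatives, 73 stayed within 1.5 times the count or within 0.1 of the median, and 9 moved by more. Part of the 73 could not move, so the tally does not measure robustness. Centring shifted every log2 ratio by the same amount (the median of all loci was -0.0041). Asking for at least 1 FPKM in both groups left out ACTC1 alone, so role groups without that gene stayed identical. At a 1.5-fold limit 2 members were lower, and at 1.1-fold 7 were lower and 1 higher. Without the filter on low values 8 members were higher and 8 lower, the added ones all below 1 FPKM in both groups. The shares of all loci past the limit were not computed under the alternatives. These counts of members therefore have nothing to be set against. Without that filter the median log2 ratio also changed sign for all members (0.0019), the essential light chains (0.0106) and the unconventional myosins (0.0215). Of the 4 lower members 3 remained with at least 1 FPKM in both groups, and likewise 3 with a pseudocount of 1 FPKM. Centred on the median of all loci, MYL6B had 0.0003 and so changed sign. The median log2 ratio of the actins rests on 2 genes and was 0.2351 without the filter, 0.2096 for at least 1 FPKM in both groups, which leaves out ACTC1, and -0.0914 with a pseudocount of 1 FPKM. That of the myosin light chain kinases was 0.1562 without the filter. With the pseudocount added at the lowest possible level, TUFT1 had -0.6433, ACTC1 -0.3625 and CNN3 -0.2306, so CNN3 no longer passed the limit. Placing the decimal point by the ratio closest to 1 moved 27 of 12401 loci by more than 0.01 and 0 members. These 12401 loci had still been chosen with the authors' log2 column as key. Possible readings of a cell differ by factors of 10, so members with log2 ratios from -0.85 to 0.21 could not move. No paired analysis was possible because the table holds 1 pooled value per group, and leaving out single replicates was not run for the same reason. The depth of single samples is unknown, so the precision of the ratios could not be given.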
